A study of Mus musculus with 27 samples.

Results

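Transcripts of 9 ADAMTS proteases (Adamts1, Adamts2, Adamts4, Adamts5, Adamts8, Adamts9, Adamts10, Adamts12 and Adamts15) were followed in mouse cardiac fibroblasts and whole hearts from birth to old age. The genes were listed by symbol among the 22855 genes of both count tables, which hold 18 ADAMTS symbols in all, and the set was selected on a late rise of Adamts4 in cardiac fibroblasts. The levels of the older fibroblast groups relative to 14 weeks are therefore given as a description, without a test, for every member. The study asked which genes cardiac fibroblasts turn up or down as the heart ages, and measured polyA RNA of C57Bl/6 mice by RNA-Seq. PDGFRα-positive cells sorted by flow cytometry after enzymatic digestion of the ventricles gave 3 libraries at postnatal day 1, 3 at 4 weeks, 2 at 14 weeks, and then 2 at 1 year and 2 at 1.5 years. Hearts, stated to be those from which the fibroblasts came, gave 3 libraries at each of the same 5 ages, and atria and valves were removed before cell isolation. The labels name no transgene or treatment, and give neither the sex nor whether animals were pooled.

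ADAMTS proteases are secreted zinc metalloproteases with thrombospondin repeats, which hold them in the extracellular matrix. Several cut the large proteoglycans versican and aggrecan, others trim procollagen or act on fibrillin microfibrils and cartilage oligomeric matrix protein, and tissue inhibitor of metalloproteinases 3 (Timp3) restrains many of them. In the heart, ADAMTS cleavage of versican takes part in the clearing of embryonic matrix and in valve and chamber remodelling.

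The members share 1 catalytic site. The stretch of 36 coding bases that encodes the histidines binding the catalytic zinc, up to the aspartate after the last of them, is shown 5′ to 3′ for 7 members because all 9 encode it and its eighth residue divides them. Such a zinc site is common to metalloproteases beyond this family. The capitals mark the eighth codon, which encodes asparagine in 4 members (Adamts1, Adamts4, Adamts9, Adamts15), glycine in 4 (Adamts5, Adamts2, Adamts10, Adamts12) and serine in Adamts8.
Adamts4: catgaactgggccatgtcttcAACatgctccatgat
Adamts1: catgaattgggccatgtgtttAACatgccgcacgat
Adamts9: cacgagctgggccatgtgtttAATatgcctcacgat
Adamts8: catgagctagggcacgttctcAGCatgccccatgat
Adamts5: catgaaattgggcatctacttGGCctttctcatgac
Adamts2: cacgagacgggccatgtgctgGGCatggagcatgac
Adamts12: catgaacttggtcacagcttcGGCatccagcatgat
The sequences are those of GENCODE M21 transcripts on GRCm38, and in each of the 9 genes the site is split over 2 coding exons. Its ends lie at chr1:171253210-171253918 (plus strand) in Adamts4, chr16:85799188-85799545 (minus strand) in Adamts1, chr6:92905282-92908493 (minus strand) in Adamts9, chr9:30952721-30953381 (plus strand) in Adamts8, chr16:85878012-85887826 (minus strand) in Adamts5, chr11:50775403-50776137 (plus strand) in Adamts2 and chr15:11241529-11255567 (plus strand) in Adamts12, with an intron between. Over these 36 bases Adamts4 and Adamts15 were identical at 32, whereas Adamts5 and Adamts9 were identical at 20.

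Of the members, 4 lie in 2 neighbouring pairs in the genome. Adamts1 (chr16:85793827-85803113) and Adamts5 (chr16:85856173-85901828), both on the minus strand, are separated by 53059 bases with no protein-coding gene between them. Adamts8 (chr9:30942562-30963838, plus strand) and Adamts15 (chr9:30899155-30922452, minus strand) are 20109 bases apart with no gene between. No 65-base read could have come from 2 members, so the members did not share counts. Adamts4 lies at chr1:171250421-171260637 on the plus strand. Of the possible 65-base reads of Adamts9, 10% also match another annotated gene, and this share was 7.94% for Adamts8 and 0.108% for Adamts2. Which strand setting the counts used is not given in the sources used here, so the part of such reads in the values of these 3 genes was not tested.

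Libraries held 54615898 to 76758831 counts in fibroblasts and 46091271 to 67984404 in hearts, and levels are given as CPM, a gene's count relative to the library total, scaled by the trimmed mean of M values (TMM) within a tissue. Genes of the mitochondrial genome took 1.74% to 9.18% of the counts in fibroblasts and 10.8% to 34.5% in hearts. The fibroblast markers Pdgfra (784.1 to 1367.1 CPM), Dcn and Col1a1 were high in all 12 sorted libraries, and the cardiomyocyte list (5 of 5 genes present) summed to 10.1 to 620.1 CPM there against 27122 to 61114.1 in hearts. Ryr2 of cardiomyocytes and Ptprc of leukocytes were at 0 in at least 1 sorted library. The other listed cardiomyocyte genes and the other listed macrophage and leukocyte genes were above 0 in all 12 sorted libraries. Myh6 was at 3.19 to 296.6 CPM, Adgre1 at 0.0439 to 30.1 and Lyz2 at 3.95 to 157.5. The 6 endothelial markers, none at 0, summed to 1684.3 CPM in fibroblast replicate 3 at 4 weeks against 643.9 and 548.0 in the other two, and to 1402.5 and 1153.4 at 14 weeks. Xist was at most 0.0701 CPM in fibroblasts at 14 weeks and 0.315 at 1 year, but 424.3 to 429.4 at 1.5 years and 137.2 to 589.5 at the young ages, and the hearts divided in the same way at 14 weeks and 1 year. Ddx3y of the Y chromosome was at 31.6 to 36.3 CPM in fibroblasts at postnatal day 1 and 24.8 to 50.8 at 4 weeks. It was at 74.9 to 83.3 at 14 weeks, 71.7 to 74.1 at 1 year and at most 0.0813 at 1.5 years. The young fibroblast libraries thus held both transcripts, unlike those of 1.5 years. Age and sex therefore cannot be told apart where groups that differ in Xist or Ddx3y are compared. Changes are log2 fold changes with their standard errors (SE), from edgeR's quasi-likelihood F test, with Benjamini-Hochberg adjusted p-values over all genes tested and a threshold of 0.05.

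**Figure D1:**
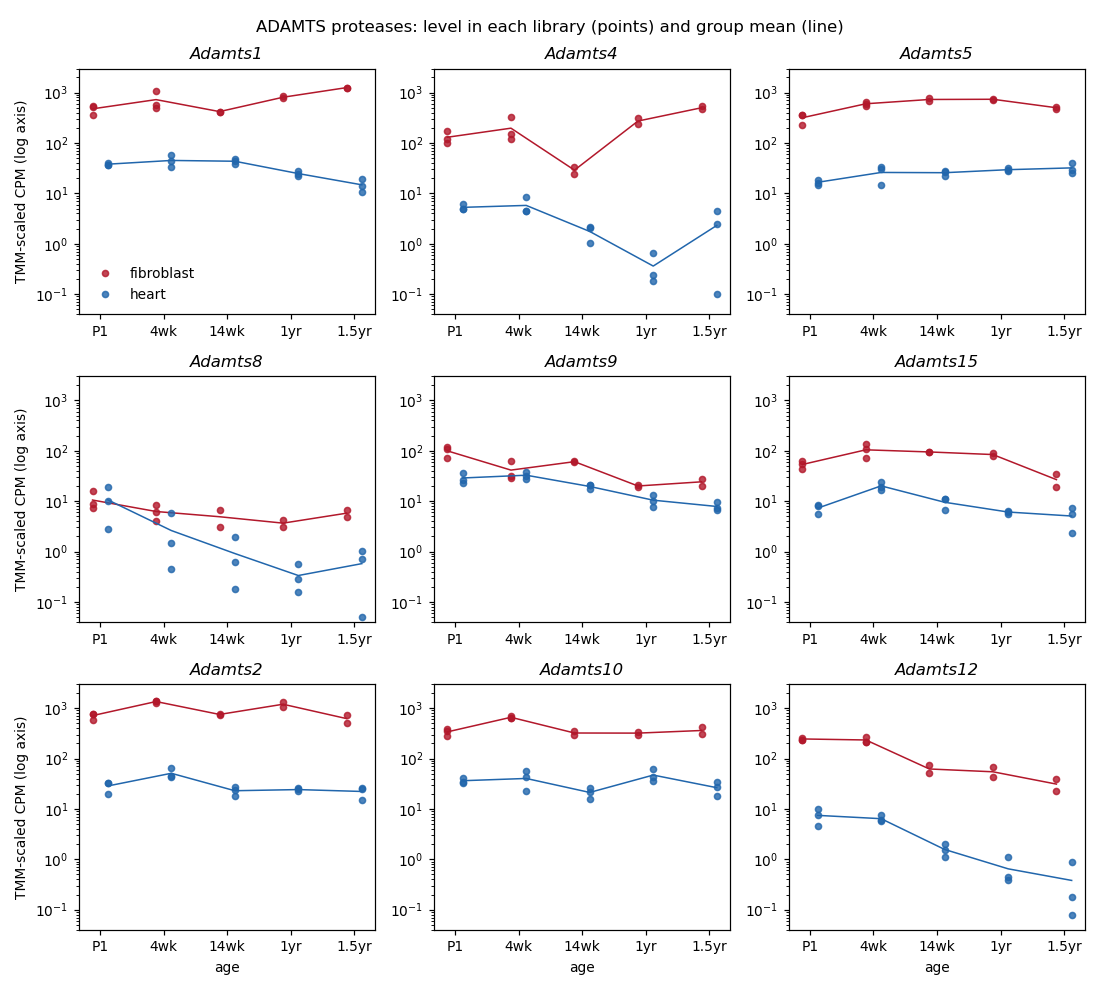
Level of each ADAMTS gene (TMM-scaled CPM, log axis) at 5 ages in fibroblasts (red) and hearts (blue), with 1 point per library and a line through the group means; the tissues were scaled separately, and the 1 heart library without an Adamts8 count is drawn at 0.05. Adamts4 in fibroblasts dips to 24.1 and 33.7 CPM at 14 weeks and stands at 470.2 and 530.0 at 1.5 years, the widest range in fold of the 9 genes in fibroblasts.

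Between postnatal day 1 and 4 weeks, 4 of the 9 members rose in fibroblasts and 1 fell. The risers were Adamts2, Adamts10, Adamts5 and Adamts15, and the one that fell was Adamts9. Among all 18759 genes tested, 9.28% were called higher and 6.2% lower, and the median log2 change was 0.61 over the members against 0.00 over all genes. Adamts1, Adamts4, Adamts8 and Adamts12 did not pass the test. Among 12 genes induced by handling or heat (immediate early and heat shock genes, which cell isolation can switch on), 11 rose and none fell over the same interval. The cardiomyocyte sum was 562.6 to 620.1 CPM at postnatal day 1 and 45.7 to 137.7 at 4 weeks, and the sum of 5 macrophage and leukocyte genes was 80.9 to 156.2 and then 196.3 to 351.4. The 6 smooth muscle and pericyte genes summed to 246.6 to 373.3 CPM at postnatal day 1 and 90.1 to 177.4 at 4 weeks. These groups did not overlap, and the sum was 368.7 to 474.6 at 14 weeks. Adamts9 was also lower at 4 weeks than at birth, but its mean was lowest at 1 year, when this sum was 252.7 and 292.7. The part of these genes in the changes of the members was not tested.

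Adamts2, the procollagen N-propeptidase that removes the amino-terminal extension of fibrillar procollagens, measured 783.4, 591.6 and 761.7 CPM at postnatal day 1 and 1397.2, 1401.3 and 1267.4 at 4 weeks. Every 4-week library lay above every newborn one. The log2 fold change was 0.93 ± 0.16 (SE; adjusted p = 0.00158, edgeR, higher in 3 of 3 libraries). Adamts10, which binds fibrillin-1 and has little proteolytic activity of its own, went from 392.4, 347.5 and 277.4 CPM to 652.6, 636.3 and 690.5. The groups were again apart, with a log2 fold change of 0.96 ± 0.16 (adjusted p = 0.0011, edgeR).

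Adamts5, a major aggrecanase that also cuts versican, stood at 230.7, 360.3 and 360.5 CPM in newborn fibroblasts and at 596.7, 549.9 and 654.3 at 4 weeks. Its log2 fold change was 0.92 ± 0.16 (adjusted p = 0.00202, edgeR), and the groups did not overlap. Adamts15, another proteoglycan-cleaving member, rose from 54.8, 43.6 and 61.9 CPM to 134.4, 107.7 and 71.3, a log2 fold change of 0.97 ± 0.25 (adjusted p = 0.0194, edgeR). This call rested on single libraries. It was lost without 4-week replicate 1 (log2 0.74, adjusted p = 0.0879), without 4-week replicate 2 (0.94, adjusted p = 0.0544) and without newborn replicate 2 (0.84, adjusted p = 0.0784).

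Adamts9, the versican-cleaving member of the longest coding sequence here (1931 residues), went the other way. It measured 71.4, 120.0 and 107.1 CPM at postnatal day 1 and 31.9, 28.6 and 63.5 CPM at 4 weeks, with no overlap. The log2 fold change was −1.27 ± 0.29 (adjusted p = 0.00904, edgeR). The highest 4-week value was that of replicate 3, the library with the high endothelial sum, and without it the log2 fold change was −1.72 (adjusted p = 0.000427). All 5 calls were kept without that library.

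The same replicate 3 was also the highest at 4 weeks for Adamts1 and Adamts4. Adamts1, an inducible versicanase, measured 363.2, 529.2 and 535.9 CPM at postnatal day 1 and 577.2, 503.1 and 1096.9 at 4 weeks, so the groups overlapped (log2 0.61 ± 0.25, adjusted p = 0.125, edgeR), and without 4-week replicate 2 the difference was called (0.81, adjusted p = 0.046). Adamts4, an aggrecanase also induced by inflammatory cytokines, measured 98.5, 120.9 and 170.6 CPM against 147.5, 120.0 and 322.6 (log2 0.60 ± 0.32, adjusted p = 0.225, edgeR). Replicate 3 also had the highest 4-week sum of 5 inflammatory genes (Il1b, Il6, Tnf, Ccl2 and Nfkbia), 513.4 CPM against 254.8 and 273.4. The part of the endothelial or the inflammatory signal in these values was not tested. Adamts12, which cleaves cartilage oligomeric matrix protein, stood at 237.9, 237.3 and 260.3 CPM and then at 212.0, 272.9 and 216.9 (log2 −0.07, 95% interval −0.54 to 0.41). Adamts8 was the lowest member, at 7.31 to 15.6 CPM and then 4.08 to 8.46.

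In whole hearts, 2 members rose over the same interval and none fell. These were Adamts15 and Adamts2, and over 17995 genes tested 12.1% were called higher and 6.1% lower. In bulk hearts, fewer cells of a type and less RNA per cell cannot be told apart. Adamts15 measured 5.51, 8.02 and 8.24 CPM at postnatal day 1 and 16.8, 19.1 and 24.4 at 4 weeks. Its groups were apart, with a log2 fold change of 1.47 ± 0.36 (adjusted p = 0.00871, edgeR). Adamts2 went from 20, 32.7 and 33.0 CPM to 45.3, 43.2 and 64.6, a log2 fold change of 0.84 ± 0.25 (adjusted p = 0.0299, edgeR).

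Both heart calls depended on the scaling. With library sizes alone in place of TMM the log2 changes were 0.97 for Adamts15 (adjusted p = 0.0698) and 0.33 for Adamts2 (adjusted p = 0.414). The Adamts2 call was also lost when only the groups compared were fitted (0.81, adjusted p = 0.0515), without 4-week replicate 3 (0.63, adjusted p = 0.149) or without newborn replicate 1 (0.64, adjusted p = 0.128). Without 4-week replicate 2, Adamts5 was called too (log2 0.94, adjusted p = 0.00482).

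Whether the tissues changed differently from postnatal day 1 to 4 weeks was tested as an interaction over all 27 libraries. Of 20650 genes, 3.18% had a more positive change in fibroblasts and 3.96% a more negative one. Adamts9 was the single member that passed, with a change in fibroblasts 1.47 log2 units below that in hearts (−1.47 ± 0.38, adjusted p = 0.0189, edgeR). In hearts Adamts9 measured 23.1, 36.6 and 26.8 CPM at postnatal day 1 and 38.2, 28.1 and 31.9 at 4 weeks, and these groups overlapped. The interaction was lost with library sizes alone in place of TMM (log2 −1.01, adjusted p = 0.104) and when only the groups compared were fitted (−1.5, adjusted p = 0.0699). It was also lost without fibroblast 4-week replicate 1 (log2 −1.32, adjusted p = 0.0547), 4-week replicate 2 (−1.27, adjusted p = 0.0543), newborn replicate 2 (−1.31, adjusted p = 0.0531) or heart newborn replicate 1 (−1.33, adjusted p = 0.0542). The other 8 members did not pass. For Adamts2 the difference was 0.09, with a 95% interval from −0.58 to 0.75.

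**Figure D2:**
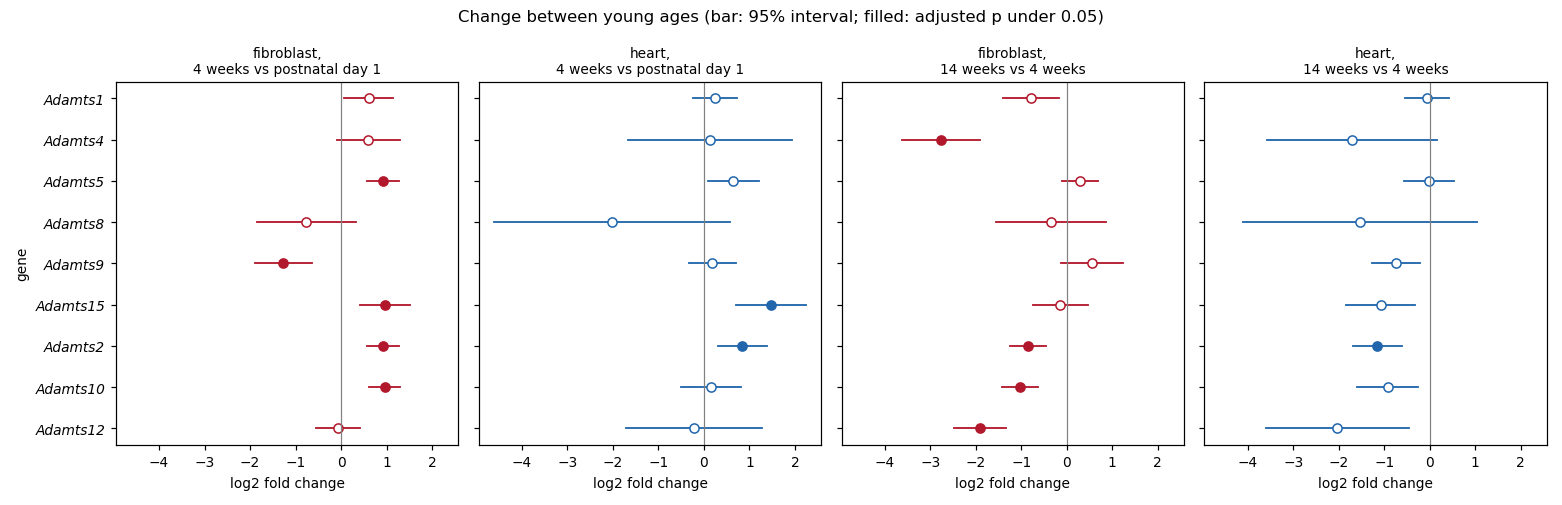
Log2 fold change (horizontal axis) of the 9 genes for 4 weeks against postnatal day 1 and for 14 weeks against 4 weeks in each tissue, with bars for the 95% interval and filled points for an adjusted p under 0.05. Filled points lie on the right for 4 weeks in fibroblasts except Adamts9 at −1.27. All filled points at 14 weeks lie on the left, down to −2.77 for Adamts4, whose late rise from these libraries selected the set.

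From 4 to 14 weeks, 4 of 9 members fell in fibroblasts and none rose. Those that fell were Adamts4, Adamts12, Adamts10 and Adamts2, and of all genes tested 1.79% were called higher and 2.08% lower. The set was selected on the late rise of Adamts4 from these 14-week libraries, so its fall adds no independent evidence to the count. The median log2 change was −0.79 over the members and 0.00 over all genes. Adamts12 went to 73.1 and 51.2 CPM, below every younger library, with a log2 fold change of −1.91 ± 0.26 (adjusted p = 0.00209, edgeR). Adamts10 returned to 295.5 and 348.1 CPM, within its newborn range, with a log2 fold change of −1.04 ± 0.18 (adjusted p = 0.0084, edgeR).

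Adamts2 was down to 742.9 and 760.0 CPM at 14 weeks, also back within the newborn range. Its log2 fold change was −0.85 ± 0.18 (adjusted p = 0.0231, edgeR). With 14-week replicate 4 left out, Adamts2 (adjusted p = 0.21) and Adamts10 (adjusted p = 0.13) lost the call, and with 14-week replicate 6 left out both lost it as well (adjusted p = 0.187 and 0.0615). Leaving out 4-week replicate 1 or 2 ended the Adamts2 call at adjusted p = 0.0716 and 0.0597.

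Adamts4 dropped to 24.1 and 33.7 CPM at 14 weeks. No fibroblast library of another age was as low, and its log2 fold change from 4 weeks was −2.77 ± 0.40 (95% interval −3.63 to −1.90). It passed the threshold with all libraries and when any 1 was left out, and was −2.21 without 4-week replicate 3. These 14-week libraries are also the base of the late rise that the set was selected on, so this fall is no independent evidence. The endothelial sum was high in both of them. The summed level of 5 inflammatory genes, listed as inflammatory inducers (Il1b, Il6, Tnf, Ccl2 and Nfkbia), was lowest there, at 161.4 and 153.9 CPM. The part of either in the fall was not tested.

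Adamts5 did not follow. It stood at 668.6 and 792.2 CPM at 14 weeks, above all 4-week libraries, but the difference did not pass (log2 0.28 ± 0.18, adjusted p = 0.488, edgeR). Adamts15 was at 96.5 and 93.0 CPM and Adamts1 at 420.9 and 418.4, and neither passed (adjusted p = 0.921 and 0.178, edgeR). DESeq2 called Adamts1 lower (log2 −0.80, adjusted p = 0.0358). Adamts9 measured 62.7 and 58.9 CPM, with a log2 change of 0.56 that passed only without 4-week replicate 3 (1.01, adjusted p = 0.0425).

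In hearts Adamts2 was the 1 member that fell over the same interval, against 0.756% of genes called higher and 0.85% lower. Adamts2 measured 23.7, 17.7 and 27.6 CPM at 14 weeks, below every 4-week library (log2 −1.15 ± 0.26, adjusted p = 0.0332, edgeR). The call was lost with a replicate block (adjusted p = 0.0576). It was also lost without any 1 of the 3 libraries at 14 weeks (adjusted p = 0.0744 to 0.181) or without 4-week replicate 3 (adjusted p = 0.183). All 9 members had a negative log2 change here, with a median of −1.08 against 0.00 over all genes. Adamts12, at 7.60, 5.94 and 5.68 CPM and then 2.05, 1.10 and 1.56, had groups that were apart and a log2 change of −2.03 ± 0.74 without passing (adjusted p = 0.227, edgeR).

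**Figure D3:**
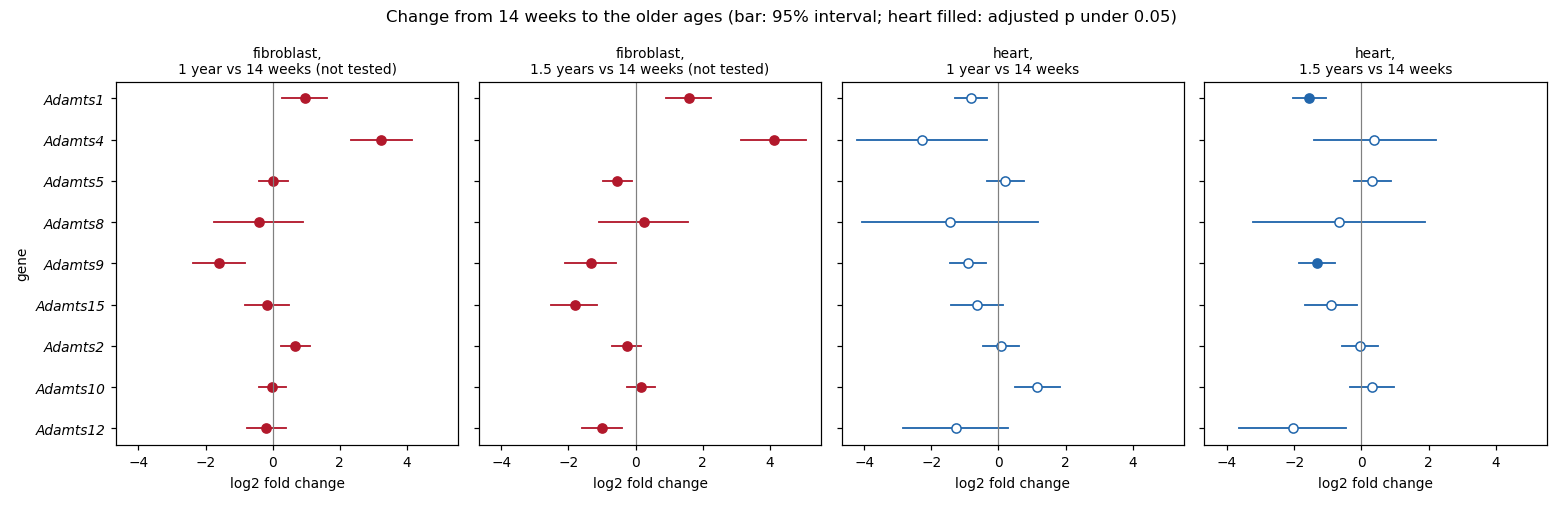
Log2 fold change (horizontal axis) against 14 weeks at 1 year and 1.5 years in fibroblasts (red, not tested) and hearts (blue, filled for an adjusted p under 0.05), with bars for the 95% interval. Adamts4 lies farthest to the right in fibroblasts, at 3.24 and 4.11, and the filled points in hearts are Adamts1 at −1.56 and Adamts9 at −1.32, both at 1.5 years.

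After 14 weeks the members went separate ways in fibroblasts. Adamts4 and Adamts1 were higher at both late ages, Adamts9 was lower at both, and Adamts15 and Adamts12 were lower at 1.5 years. Adamts4 measured 306.8 and 238.3 CPM at 1 year and 530.0 and 470.2 at 1.5 years, compared with 24.1 and 33.7 at 14 weeks. Both late groups lay above 14 weeks, and the 1.5-year libraries lay above those of every other age. The log2 difference from 14 weeks was 3.24 ± 0.42 (SE) at 1 year and 4.11 ± 0.44 at 1.5 years, which is 9.43-fold and 17.3-fold. Against the young ages the late level was less apart, since 4-week replicate 3 (322.6 CPM) exceeded both 1-year libraries.

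The order of the group means of Adamts4 was 1.5 years, 1 year, 4 weeks, postnatal day 1 and 14 weeks. The 1-year and 4-week groups overlapped, as did those of 4 weeks and postnatal day 1, and the other neighbours in the order were apart. Both the 14-week and 1-year libraries were low in Xist, so the difference of 3.24 lies within Xist-low libraries. Leaving out any 1 library of the groups compared gave 3.01 to 3.50 at 1 year and 3.89 to 4.37 at 1.5 years.

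Genes that respond to handling and inflammation also differed between 14 weeks and the late ages. The 12 immediate early and heat shock genes (such as Fos, Jun, Egr1 and Hspa1a), all present, summed to 41382.1 and 44553.7 CPM at 1 year and 47476.9 and 45564.1 at 1.5 years, against 32508.8 and 35561.3 at 14 weeks. At 4 weeks this sum was 32292.1 to 36017.4 CPM, overlapping 14 weeks, while Adamts4 was at 120.0 to 322.6 and then 24.1 and 33.7. The sum was lowest at postnatal day 1, at 13811.1 to 19482.5 CPM, where Adamts4 was at 98.5 to 170.6. In hearts, whose RNA was taken from the tissue, this sum was 187.6 to 744 CPM. The 5 genes listed as inflammatory inducers summed to 420.4 and 630.8 CPM at 1 year and 847.8 and 775.7 at 1.5 years. The lowest sums were those of 14 weeks. Mean Il6 was 47.5 CPM at 14 weeks, 229.4 at 1 year and 257.5 at 1.5 years. Nfkbia was at 81.1, 210.2 and 468.1 and Ccl2 at 25.9, 82.9 and 75.7 CPM. Il1b (2.09 and 2.08) and Tnf (1.05 and 1.05) were alike at 14 weeks and 1 year, and stood at 7.47 and 2.99 at 1.5 years. The median log2 difference from 14 weeks over these 5 genes was 1.37 at 1 year and 1.84 at 1.5 years. Over all genes it was −0.01 and 0.00, and over the 12 immediate early and heat shock genes 0.23 and 0.40. The part of cell isolation or of either gene list in the Adamts4 levels was not tested.

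**Figure D4:**
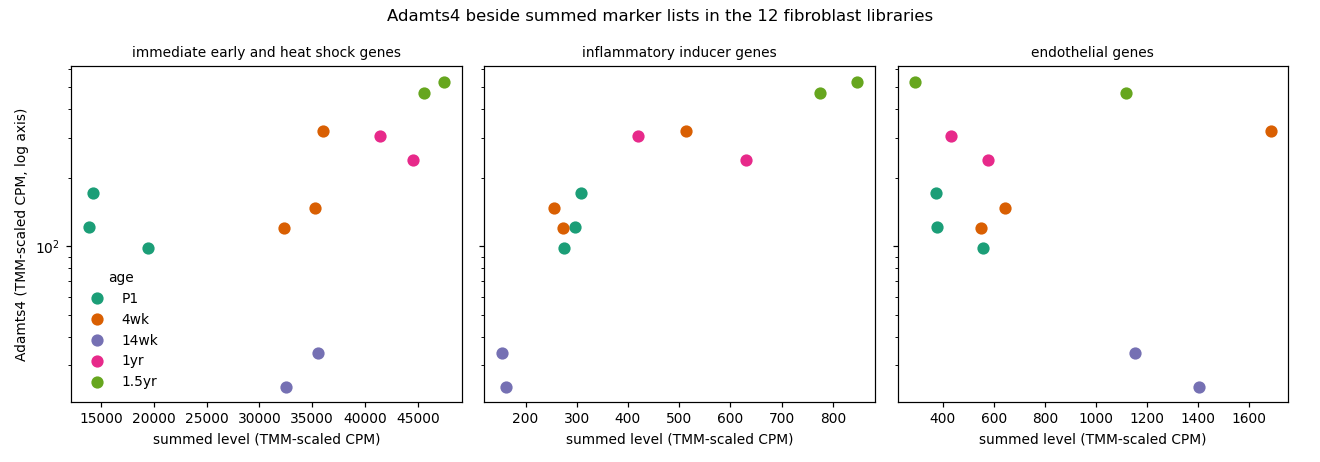
Adamts4 (vertical log axis, TMM-scaled CPM) against the summed level of 12 immediate early and heat shock genes, 5 inflammatory inducer genes and 6 endothelial genes in the 12 fibroblast libraries, 1 point per library, coloured by age. The libraries with the least Adamts4 (14 weeks) have the lowest inflammatory inducer sums, 161.4 and 153.9 CPM. Those with the most (1.5 years) have the highest, 847.8 and 775.7. The endothelial sums are 1402.5 and 1153.4 at 14 weeks and 291.5 and 1119.1 at 1.5 years. The immediate early and heat shock sums are lowest at postnatal day 1, and those of 4 weeks and 14 weeks overlap.

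Adamts1 was the other member with more transcript at the late ages. It measured 765.3 and 852.9 CPM at 1 year and 1256.4 and 1255.7 at 1.5 years, after 420.9 and 418.4 at 14 weeks. The log2 differences were 0.95 ± 0.30 and 1.58 ± 0.31. As for Adamts4, one 4-week library (replicate 3, 1096.9 CPM) lay above both 1-year libraries. Over the 12 fibroblast libraries the log2 levels of Adamts1 and Adamts4 had a Pearson r of 0.87, the highest of the 36 member pairs, and Adamts1 and its neighbour Adamts5 had 0.29.

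Adamts9 was down to 18.9 and 21.1 CPM at 1 year and 20.3 and 28.1 at 1.5 years, below all younger libraries (log2 −1.61 ± 0.36 and −1.33 ± 0.35 against 14 weeks). The endothelial sum was 430.5 and 576.6 CPM at 1 year and 291.5 and 1119.1 at 1.5 years, below the 1402.5 and 1153.4 of 14 weeks, and the smooth muscle and pericyte sum was 252.7 and 292.7 and then 154.5 and 317.2, below the 474.6 and 368.7 of 14 weeks. The part of either in the Adamts9 levels was not tested. Adamts15 kept 90.7 and 77.6 CPM at 1 year and then stood at 34.7 and 18.8 at 1.5 years, below all other fibroblast libraries (log2 −1.82 ± 0.32). Both encode asparagine at the eighth residue of the catalytic site, as do Adamts4 and Adamts1, whose late values lay in the other direction. Adamts12 was at 66.7 and 42.6 CPM and then 39.3 and 23.0, a log2 difference of −1.0 ± 0.27 at 1.5 years.

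The remaining members differed less. Adamts5 was at 751.9 and 722.9 CPM at 1 year and 471.7 and 529.3 at 1.5 years (log2 0.01 ± 0.20 and −0.55 ± 0.20). Adamts2 measured 1323.5 and 1072.4 CPM at 1 year, 1 library within and 1 below its 4-week range, and 740.1 and 503.0 at 1.5 years (log2 0.67 ± 0.20 and −0.27 ± 0.20). Adamts10 was at 297.3 and 342.9 CPM and then 420.4 and 301.4 (log2 −0.01 ± 0.19 and 0.17 ± 0.19). Adamts8 remained at 3.11 to 6.65 CPM.

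In hearts Adamts4 was low and scattered at the late ages. It measured 2.19, 1.02 and 2.05 CPM at 14 weeks, 0.236, 0.665 and 0.18 at 1 year, and 4.39, 2.43 and 0.0987 at 1.5 years. All 1-year libraries lay below those of 14 weeks, whereas the 1.5-year libraries spread around them. The log2 change was −2.28 ± 0.91 at 1 year (adjusted p = 0.26, edgeR) and 0.39 ± 0.86 at 1.5 years (95% interval −1.42 to 2.21). Few counts lie behind these values, with 9 to 33 counts per library at 1 year and 6 to 239 at 1.5 years. The 1.5-year replicates differed this widely at library totals of 57651138 to 67969823 counts. With standard errors of this size a change of moderate size was not detectable.

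At 1 year against 14 weeks no member was called in hearts by edgeR in the fit over all heart libraries, against 0.389% of genes higher and 0.583% lower. The unadjusted p was under 0.05 for 4 members, and DESeq2 called 3, with Adamts10 higher (log2 1.16, adjusted p = 0.0147) and Adamts1 (−0.79, adjusted p = 0.0351) and Adamts9 (−0.88, adjusted p = 0.0266) lower. With only the groups compared in the fit, edgeR called the same 3 (adjusted p = 0.0124, 0.0125 and 0.0336, edgeR). Adamts10 measured 35.7, 43.1 and 62.3 CPM at 1 year, all above its 14-week values of 21.6, 26.4 and 15.8. Its log2 change by edgeR was 1.15 ± 0.32 (adjusted p = 0.0891).

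At 1.5 years 2 members were lower than at 14 weeks in hearts, Adamts1 and Adamts9, against 4.91% of genes called higher and 7.86% lower. Adamts1 went from 37.5, 48.9 and 43.8 CPM through 23.8, 22.1 and 28.2 at 1 year to 19.7, 14.1 and 10.5 at 1.5 years. The 3 ages did not overlap, and the log2 change at 1.5 years was −1.56 ± 0.23 (adjusted p = 0.000986, edgeR). Adamts1 was thus lower in hearts at 1.5 years while its fibroblast level was higher, and the difference between the tissues at these ages was not tested. Xist in hearts was at most 0.414 CPM at 14 weeks and 34.8 to 128.9 at 1.5 years. Ddx3y was at 35.5 to 52.4 CPM and then at most 0.397. Age and sex therefore cannot be told apart in the calls of Adamts1 and Adamts9.

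Adamts9 in hearts measured 17.1, 20.8 and 20.8 CPM at 14 weeks and 9.54, 7.21 and 6.78 at 1.5 years. The groups were apart (log2 −1.32 ± 0.25, adjusted p = 0.00319, edgeR). Adamts12 was at 0.883, 0.0794 and 0.181 CPM at 1.5 years, below all 14-week libraries, without passing by edgeR (log2 −2.05 ± 0.75, adjusted p = 0.0852), and DESeq2 called it (adjusted p = 0.0343). Adamts5 was not lower, at 40.6, 29.7 and 25.8 CPM against 22.1, 28.2 and 26.8 (log2 0.32, 95% interval −0.23 to 0.87). Without heart 1.5-year replicate 1 the count of calls was 4, adding Adamts12 (log2 −3.58, adjusted p = 0.00456) and Adamts15 (−1.27, adjusted p = 0.0338).

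Adamts8 varied widely among heart replicates. It measured 2.74, 18.8 and 10.3 CPM at postnatal day 1, 0.446, 1.47 and 5.92 at 4 weeks, and 1.01, 0.715 and 0 at 1.5 years. The library with no count had 67969823 counts in all, which allows up to 0.0494 CPM at 3 counts (counting error only). None of its age comparisons passed in either tissue, with standard errors of 1.21 to 1.24 in the heart comparisons.

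Set against whole hearts of the same age, most members were higher in sorted fibroblasts. At postnatal day 1 this held for 8 of 9 members, at 4 weeks for 7 and at 14 weeks for 8, and no member was lower. Of 20650 genes tested, 13.6%, 17.5% and 17.1% were called higher in fibroblasts at these ages and 18.7%, 18.6% and 17.7% lower. The median log2 difference over the members was 3.3, 3.68 and 3.57, and over all genes −0.17, 0.00 and 0.04. The older ages were not tested.

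Adamts12 and Adamts2 had the largest differences at 14 weeks. Adamts12 was 25.9-fold, 28.7-fold and 30.6-fold higher in fibroblasts at the 3 ages in order (log2 4.69 ± 0.49, 4.84 ± 0.50 and 4.93 ± 0.52). Adamts2 was 19.7-fold, 20.9-fold and 25.5-fold higher (adjusted p = 5.99e-12, 2.41e-12 and 2.39e-12, edgeR). Adamts5 was 15.1-fold to 22.3-fold higher, Adamts1 7.57-fold to 12.6-fold, Adamts10 7.33-fold to 12.8-fold and Adamts15 4.09-fold to 7.81-fold. Adamts4 was 19.4-fold, 26.5-fold and 12.7-fold higher (log2 4.28 ± 0.65, 4.73 ± 0.67 and 3.67 ± 0.68).

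Adamts9 and Adamts8 stood apart. Adamts9 was 2.72-fold higher in fibroblasts at postnatal day 1 (adjusted p = 0.000184, edgeR) and 2.43-fold higher at 14 weeks (adjusted p = 0.00125, edgeR), but at 4 weeks the log2 difference was −0.02 with a 95% interval from −0.58 to 0.53. Adamts8 did not pass at any of the 3 ages, with 95% intervals of −2.48 to 1.78, −1.25 to 3.05 and −0.31 to 4.47. The calls of the other 7 members at these ages were kept in all alternatives tried. Immediate early and heat shock genes were called higher in fibroblasts for 12 of 12 at each age (Fos by 8.03 log2 units at postnatal day 1), and the part of cell isolation in the differences between tissues was not tested.

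**Figure D5:**
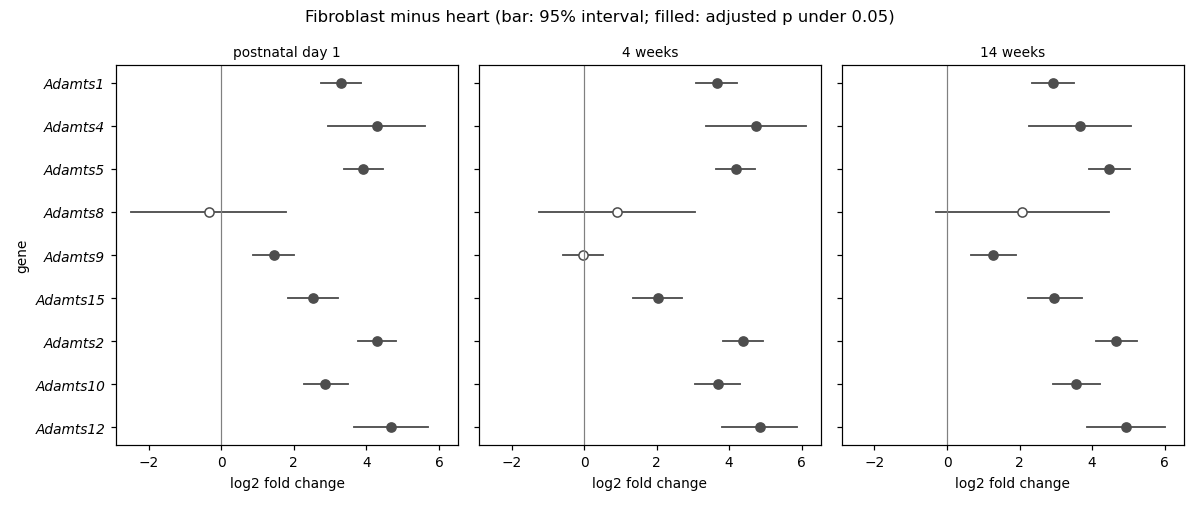
Log2 difference of sorted fibroblasts from whole hearts (horizontal axis) for the 9 genes at postnatal day 1, 4 weeks and 14 weeks, from 1 fit over all libraries, with bars for the 95% interval and filled points for an adjusted p under 0.05. Open points are Adamts8 at each age and Adamts9 at 4 weeks (−0.02), and the filled points run from 1.28 to 4.93.

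Per kilobase of exon, Adamts1 and Adamts2 led the members in fibroblasts at every age except 1.5 years. At 14 weeks the group means were 80.5 CPM per kb for Adamts2 (79.6 to 81.4), 79.1 for Adamts1 and 67.7 for Adamts5, while Adamts4 ranked the sixth at 6.01. At 1.5 years Adamts4 ranked the second, at 104 CPM per kb, behind Adamts1 at 237. Adamts8 was the lowest in fibroblasts at each age, at 0.793 to 2.28 CPM per kb. In hearts Adamts1 led at postnatal day 1, 4 weeks and 14 weeks (7.15 to 8.49 CPM per kb), whereas Adamts10 led at 1 year (5.70) and 1.5 years (3.20). The libraries of Adamts10 (2.14 to 4.18) and Adamts1 (1.98 to 3.72) overlapped at 1.5 years.

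Substrates and relatives of these proteases were read from lists chosen by function. Over the first 4 weeks in fibroblasts, 4 of 6 ADAMTS-like genes, which encode relatives without the protease domain, rose and none fell. Adamtsl2, whose product binds fibrillin and latent TGF-β binding proteins, rose by 2.69 ± 0.18 log2 units (100.3 to 155.5 CPM, then 756 to 937.1), and Papln by 3.50 ± 0.24. Of the other ADAMTS proteases, 8 were tested and 2 fell, Adamts14, a procollagen N-propeptidase like Adamts2 (log2 −2.00 ± 0.20), and Adamts7, which like Adamts12 cleaves cartilage oligomeric matrix protein (−1.72 ± 0.16). Adamts2 thus rose while Adamts14 fell. In hearts 5 of 6 ADAMTS-like genes rose and 2 of 7 other ADAMTS proteases fell over the same weeks.

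Procollagen genes, the substrates of Adamts2, did not rise with it in early life and fell when it fell. Of 5 procollagen genes in fibroblasts, 2 fell from postnatal day 1 to 4 weeks, Col1a1 (log2 −0.84 ± 0.20, adjusted p = 0.0132, edgeR) and Col5a1, while Adamts2 rose. From 4 to 14 weeks 4 of 5 fell in fibroblasts, with Col3a1 at −1.74 ± 0.26 and Col1a1 at −1.40 ± 0.24. In hearts 4 of 5 fell too, with Col3a1 at −1.95 ± 0.22. The median log2 change over the 5 genes was −1.40 in fibroblasts and −1.54 in hearts, against 0.00 over all genes in both. In fibroblasts their median difference from 14 weeks was 0.85 at 1 year and −0.43 at 1.5 years. Adamts2 differed by 0.67 and −0.27, and these late values were not tested. One of the 5 genes, Col2a1, was at most 3.1 CPM in fibroblasts.

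Genes of proteoglycans and of their hyaluronan links gave 4 rises and 1 fall among 8 tested in fibroblasts at 4 weeks. Versican (Vcan) was not among them, at 669.7 to 1065.4 CPM and then 756.3 to 904.6. In hearts versican fell by 2.14 ± 0.34 log2 units, and the change differed between the tissues by 2.14 ± 0.41 (adjusted p = 0.00184, edgeR). Hapln1, which links versican to hyaluronan, fell in fibroblasts from 10.1 to 14.7 CPM to at most 0.541 (log2 −5.33 ± 1.66). Dcn, the small proteoglycan decorin, rose by 1.51 ± 0.14, and Bcan was called from levels of at most 0.961 CPM.

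Of 4 microfibril and COMP genes, 3 rose and 1 fell in fibroblasts by 4 weeks. Fibrillin-2 (Fbn2), a microfibril protein of early life, fell in fibroblasts from 868.1 to 1087.3 CPM at birth to 41.2 to 81.2 at 4 weeks (log2 −3.91 ± 0.31), while Adamts10 rose. Comp, the substrate of Adamts12, rose by 4.19 ± 1.04 over the same weeks, from at most 5.09 CPM to 22.1 to 43.6. It was at 295 to 370.9 CPM at 1.5 years, the age at which Adamts12 was lowest.

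Among 9 inhibitors, activators and clearance genes, 4 rose and 1 fell in fibroblasts in this interval, from birth to 4 weeks. Pcsk6, a proprotein convertase of the kind that activates ADAMTS zymogens, rose by 2.38 ± 0.15 log2 units. From 4 to 14 weeks Timp3 rose by 1.06 ± 0.16 (adjusted p = 0.00369, edgeR) and the convertase gene Furin fell by 0.75 on the log2 scale. Timp3 measured 1799.3 to 2177.9 CPM at 14 weeks, when Adamts4 was lowest, 627.7 to 829.9 at 1 year and 1575.3 to 1859 at 1.5 years, when Adamts4 was highest. Timp3 was thus lower at 1 year than at either neighbouring age.

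The genes whose log2 levels followed Adamts4 most closely over the 12 fibroblast libraries were Id3 (Pearson r = 0.964), Csrnp1 (0.922), Eif5a (0.916), CAAA01147332.1 (0.914) and Nfil3 (0.91), among 12413 genes compared. Id3, an inhibitor of helix-loop-helix transcription factors, ran from 136.9 to 175.8 CPM at 14 weeks to 449.6 to 451.7 at 1.5 years. Csrnp1 was also lowest at 14 weeks (52.3 to 66.3 CPM) and highest at 1.5 years (396.3 to 448), and reached 348.1 in 1 of the 4-week libraries. Over the 15 heart libraries the closest genes were Msn (0.902), Slc9a7 (0.899), Col6a3 (0.896), Gpc6 (0.893) and Ccnjl (0.89), none of them shared with the fibroblast list. These coefficients were ranked over all genes, the points share libraries and age groups, and no test was made.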

How the data were processed

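The authors mapped single-end 65-base reads to mm10 with STAR 2.5.3a, per the labels, counted reads per gene with its GeneCounts mode, and deposited raw read counts without normalization. The gene annotation and the strand setting of the counting are not given in the sources used here. Whole-number counts of 27 libraries were used. Labels gave the groups, with 2 fibroblast libraries at 14 weeks and at each later age where the study's methods mention 3 sets.

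Each tissue was fitted with edgeR 4.0.16 in R 4.3.3 (filterByExpr by age group, TMM, quasi-likelihood F test), with age as the factor. The tissues were compared in a fit over all 27 libraries. Benjamini-Hochberg adjustment ran over all genes tested. The study's methods state that libraries of an age came from different hearts. None of 24 same-group pairs had identical counts. Members and lists were chosen with earlier results of these data known. Named genes are the 9 members, up to 3 called genes with the largest changes per list, and the 5 genes most like Adamts4 per tissue. Log2 CPM for likeness used a prior count of 2.

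Alternatives were DESeq2 1.42.0, median-of-ratios or library-size scaling, other count filters, only the groups compared, a replicate block and leaving out libraries. Counts without genes of the mitochondrial genome were added after seeing the data. The fits were tested on simulated counts drawn with less spread than the common spread of these data. That test checked the working of the fits and did not measure their error rate here. Loci and sequences came from GENCODE M21 on GRCm38 and were handled with pandas 2.3.3 in python 3.11.15. One result is not reported here.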

Additional observations from a re-analysis of the deposited data

Results flagged for a closer look

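Adamts9 changed unequally in the 2 tissues during the first 4 weeks, which drew attention to it. The log2 change was −1.27 in fibroblasts and 0.18 in hearts, and their difference in the fit over 27 libraries was −1.47 (SE 0.38, adjusted p = 0.0189, edgeR interaction test). The adjusted p ranged from 0.000856 to 0.104 over 20 alternatives and was above 0.05 in 6 of them. The level of Adamts9 in fibroblast replicate 3 at 4 weeks, 63.5 CPM, went with that library's high endothelial sum of 1684.3 CPM, and the difference was −1.89 without it.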

How the results depend on the processing

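Across 38 called results of single members, 508 alternatives gave 483 kept calls, 25 lost calls and no reversed direction. With library size only, the count of members called was 0 of 9 for hearts at 4 weeks against postnatal day 1 and 0 for the tissue difference in that change. With only the groups compared it was 1 for hearts at 4 weeks, 2 for hearts at 14 weeks against 4 weeks, 3 for hearts at 1 year against 14 weeks and 0 for the tissue difference. For hearts at 1 year it was 1 with at least 10 counts in every sample and 3 with DESeq2. Leaving out single libraries gave 2 to 5 members for fibroblasts at 14 weeks against 4 weeks, 1 to 3 for hearts at 4 weeks, 0 to 2 for hearts at 14 weeks, 2 to 4 for hearts at 1.5 years and 0 to 1 for the tissue difference. The cause of these shifts was not tested, beyond fewer libraries in those fits. Under library-size CPM 21 of 90 mean levels moved by over 1 SD.

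Whether shared replicate numbers mark a pairing was not settled, as groups of 2 or 3 libraries are too few to exclude it. Correlations of deviations were under 0.1 in at least 1 pair of every set of 3 pairs. The highest was 0.22, for heart replicate 1 at 4 weeks and 1.5 years. Both pairs of fibroblasts at 1 year and 1.5 years gave 0.127, which is 1 value, since 2 libraries deviate equally from their mean. With a replicate block the count for hearts at 14 weeks was 0 (Adamts2, log2 −1.14, adjusted p = 0.0576) and no other call was lost. Fibroblasts at 14 and 4 weeks share no number, so that fit gave no value.

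With 2 libraries in the older fibroblast groups and under 40 Adamts4 counts in each 1-year heart, small changes could not be seen.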
